A study of Mus musculus with 9 samples.

Results

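The aquaporins are membrane channels for water and, in some members, glycerol. Their strain ratio, SJL/J over C57BL/6J, was described here in mouse brain, kidney and liver. The genes were chosen by name: of 10 aquaporin genes sought, 9 had a probe with a single gene symbol (Aqp1, Aqp2, Aqp3, Aqp4, Aqp5, Aqp7, Aqp8, Aqp9 and Aqp11), each with 1 probe among the 23040 on the array and among 15096 named genes. Aqp6 was not analysed here. The arrays were 9 in number, 3 per tissue. On each, RNA pooled from 5 male SJL/J mice aged 8 weeks (Alexa Fluor 647) was hybridised against RNA pooled from 5 male C57BL/6J mice of the same age (Alexa Fluor 555), both inbred strains without any treatment named in the labels. Per the series design, each tissue's 3 arrays repeated the hybridisation of 1 pair of pools, without exchange of dyes, so the errors and p-values below measure the spread between arrays and not between mice. Each value is a log2 ratio, positive where the SJL/J pool was higher. Its direction is likely rather than certain, since it was inferred from the titles and the dyes.

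Water channels move water across epithelia that must be leaky or tight to it on demand. Aqp1 is the constitutive channel of the proximal tubule, the descending thin limb, red cells, the choroid plexus and many endothelia. In the principal cells of the collecting duct, vasopressin moves Aqp2 into the apical membrane, and water leaves through Aqp3 and Aqp4 on the basolateral side. Aqp4 is also the channel of astrocyte endfeet in brain, and Aqp5 that of gland and lung epithelium. Aqp3, Aqp7 and Aqp9 are aquaglyceroporins, which also pass glycerol: Aqp7 lets it out of fat cells and Aqp9 takes it into hepatocytes. Aqp8 lies in hepatocytes, pancreas and gut, and Aqp11 in intracellular membranes of the proximal tubule, among other cells.

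Since the table held ratios and no intensities, the level of an aquaporin in a tissue is unknown, and neither the labelled tissue nor the expression of a channel in it could be checked from markers. A ratio is given for every probe whether or not the tissue is known to express the gene. In whole-tissue RNA, fewer cells of a type and less RNA per cell cannot be told apart. With 1 dye orientation, a dye effect particular to a probe adds to its ratio in every tissue and cannot be told apart from a strain effect of the same sign, whereas it cancels in a difference between tissues as far as the probe behaves alike in both. Values of 1 brain array stood apart. The array labelled brain replicate 3 correlated at 0.52 to 0.57 (Pearson's r over all probes) with the other brain arrays and at 0.58 to 0.63 with the kidney arrays, while arrays of kidney or of liver correlated at 0.77 to 0.79 within their tissue. Brain ratios of the aquaporins are therefore also given without it.

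The promoters of 3 genes are shown, those of the aquaporins whose call in at least 1 tissue, described below, was kept under each alternative setting tried (Aqp3 in all tissues, Aqp2 in kidney, Aqp1 in liver). Each is the 250 bases before the gene's start in RefSeq, build GRCm38.p6, which is C57BL/6J sequence, read 5′ to 3′ on the gene's strand. Capitals mark a GC box (GGGCGG) or a TATA box (TATAAA) on either strand. The windows lie at chr4:41098184-41098433 on the minus strand for Aqp3, chr15:99578806-99579055 on the plus strand for Aqp2, and chr6:55336049-55336298 on the plus strand for Aqp1.
Aqp3: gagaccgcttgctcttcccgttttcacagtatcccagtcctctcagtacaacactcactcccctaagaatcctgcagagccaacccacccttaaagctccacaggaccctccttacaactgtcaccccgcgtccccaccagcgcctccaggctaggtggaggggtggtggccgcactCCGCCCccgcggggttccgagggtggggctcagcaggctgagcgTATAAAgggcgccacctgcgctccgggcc
Aqp2: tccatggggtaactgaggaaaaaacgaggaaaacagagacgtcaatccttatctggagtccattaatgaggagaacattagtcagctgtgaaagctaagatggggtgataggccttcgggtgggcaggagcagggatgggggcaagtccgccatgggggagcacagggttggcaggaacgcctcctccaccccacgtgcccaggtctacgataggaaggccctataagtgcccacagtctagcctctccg
Aqp1: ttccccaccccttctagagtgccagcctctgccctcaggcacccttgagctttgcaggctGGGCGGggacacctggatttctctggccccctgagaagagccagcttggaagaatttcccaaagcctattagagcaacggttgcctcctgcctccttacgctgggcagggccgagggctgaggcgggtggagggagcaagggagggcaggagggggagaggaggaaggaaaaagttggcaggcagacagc
The Aqp3 window held 1 TATA box, whose first base lay 29 bases before the start, and 1 GC box on the opposite strand. The Aqp1 window held 1 GC box and no TATA box, and the Aqp2 window held neither. Among 32851 promoter windows of that length, 32.7% held a GC box and 12.4% a TATA box. The full cAMP response element, TGACGTCA, was in 1.55% of all windows and in none of the 3 shown. The marked motifs do not overlap one another. Only exact matches were counted, so variants of a motif are not marked. The Aqp2 window holds agacgtca, which differs from TGACGTCA in its first base. It also holds tataag, which differs from TATAAA in its last base. Whether such variants act was not tested. The letters are those of the C57BL/6J reference, and the SJL/J sequence was not used here.

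In kidney 4 of 9 aquaporins passed the test as higher in SJL/J (limma, adjusted p under 0.05 over all 15096 genes), 0 as lower and 5 did not pass, against 13.5% of all genes called higher and 13.9% lower. In brain 2 were higher, 0 lower and 7 did not pass, against 7.55% and 9.61% of all genes. In liver 2 were higher, 1 lower and 6 did not pass, against 10.1% and 14.4%. The median log2 ratio of the 9 genes was 0.24 in kidney, 0.18 in brain and 0.07 in liver, beside 0.03, 0.01 and -0.02 over all genes. The order of the tissues depended on the array's layout: with medians of lines and places removed, as described below, the medians were 0.13 in kidney, 0.18 in brain and 0.13 in liver, and 2, 1 and 3 aquaporins passed as higher. Across the 9 genes and 3 tissues there were thus 9 calls in 27 comparisons, made by 6 genes: Aqp3 in each tissue, Aqp1 in kidney and liver, Aqp2 and Aqp5 in kidney, Aqp7 in brain and Aqp4 in liver. Aqp8, Aqp9 and Aqp11 passed in no tissue. With 9 genes these counts are small, and those shares describe the table rather than test the family.

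**Figure D1:**
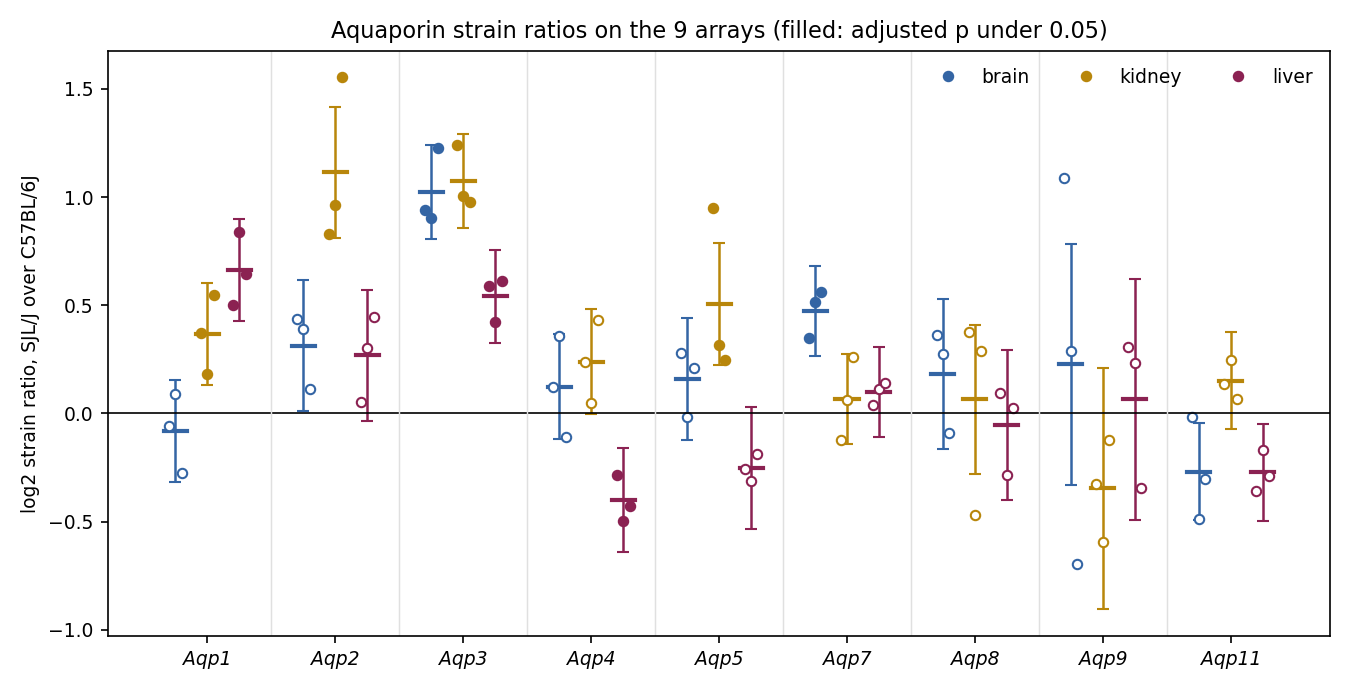
Log2 strain ratio (SJL/J over C57BL/6J) of the 9 aquaporins on the 9 arrays; points are arrays, thick bars means of 3 arrays and thin bars 95% intervals from the limma fit, with filled points where the adjusted p was under 0.05. Aqp3 lay above 0 on every array, and Aqp2 reached its highest values, 0.83 to 1.55, in kidney.

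**Figure D2:**
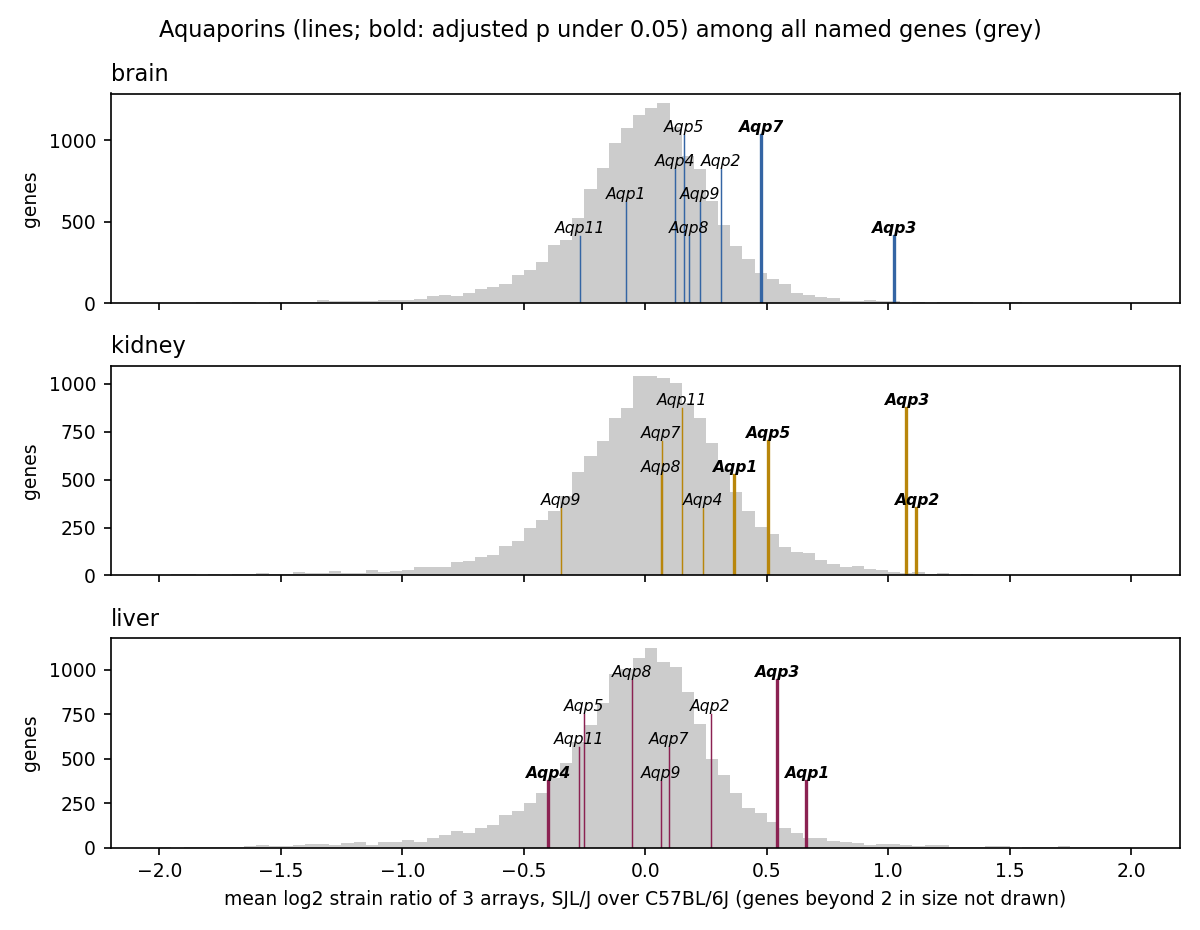
Histograms of the mean log2 strain ratio of all named genes (grey, genes per bin of 0.05) in each tissue, with a line at each aquaporin; line height carries no value. Aqp2 and Aqp3 in kidney and Aqp3 in brain lie in the right tail, and most other aquaporins lie within the body of the distribution.

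Aqp2, the vasopressin-regulated channel of the collecting duct, had the highest mean ratio of the family in kidney, close to that of Aqp3. Its log2 ratios on kidney replicates 1, 2 and 3 were 0.83, 0.96 and 1.55, on brain replicates 0.44, 0.39 and 0.11, and on liver replicates 0.05, 0.30 and 0.45. All 9 lay above 0, and each kidney array lay above each brain and liver array. The kidney mean was 1.12 ± 0.39 (SD, n = 3), 2.17-fold above the C57BL/6J pool (adjusted p = 0.000238, limma), and 0.33% of all genes had a higher kidney ratio. In brain the mean was 0.31 ± 0.18 (adjusted p = 0.141) and in liver 0.27 ± 0.20 (adjusted p = 0.181), neither of which passed. The brain ratio was 0.41 with brain replicate 3 left out (adjusted p = 0.0953). The kidney ratio exceeded that of liver by 0.85 (95% interval of liver minus kidney -1.27 to -0.42, adjusted p = 0.0135) and that of brain by 0.80 (0.38 to 1.23, adjusted p = 0.0399, limma). In kidney the call held under each of 18 alternative settings, from 0.90 to 1.26. Several of these settings cannot change the ratio of an aquaporin, only its adjusted p, as described with the processing. The difference from brain passed in 7 of 17 settings and was lost when any 1 array other than brain replicate 3 was left out (differences of 0.58 to 0.95, adjusted p = 0.0516 to 0.109), and that from liver in 15 of 17, failing without liver replicate 1 (adjusted p = 0.0527) and with the array's layout removed, as described below.

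Aqp3, which passes water and glycerol through the basolateral side of the same principal cells and through skin, was higher in the SJL/J pool in all tissues. Its ratios were 0.94, 0.90 and 1.23 on the brain arrays, 1.24, 1.01 and 0.98 on the kidney arrays, and 0.59, 0.42 and 0.61 on the liver arrays. Brain and kidney values overlapped, and each liver value lay below all of them. The mean was 1.02 ± 0.18 in brain (SD, n = 3, 2.03-fold, adjusted p = 6.44e-05), 1.07 ± 0.14 in kidney (2.11-fold, adjusted p = 3.08e-05) and 0.54 ± 0.10 in liver (1.45-fold, adjusted p = 0.00258, limma). Of all genes, 95 were called higher in each of the 3 tissues (0.629%), Aqp3 among them, and 392 lower in each, so that 3.23% were called with 1 sign throughout. The brain mean was 0.92 without the array labelled brain replicate 3. Its calls were kept in the 18 settings in each tissue, with a brain range of 0.74 to 1.08, a kidney range of 0.73 to 1.12 and a liver range of 0.32 to 0.60. The ratio in liver was lower than in kidney by 0.53 (95% interval of liver minus kidney -0.84 to -0.23, adjusted p = 0.0221) and than in brain by 0.48 (-0.79 to -0.18, adjusted p = 0.0457). These differences passed in 13 and 3 of 17 settings. The former ended without kidney replicate 1 (adjusted p = 0.0903), liver replicate 1 (0.0518) or liver replicate 2 (0.0714), or with the layout removed (0.0642, limma). The latter ended without any 1 of the 9 arrays. It also ended with the fit by probe (adjusted p = 0.0563), the layout removed (0.0783), another centring (0.0525), array weights (0.0727) and the replicate block (0.0645, limma).

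Other genes that act with these channels in the collecting duct did not share their ratio as a group. Of 11 measured markers of principal cells, 1 passed as higher in kidney, 0 as lower and 10 did not pass, with a median of 0.10. The gene that passed was Scnn1a, the alpha subunit of the epithelial sodium channel, at 0.63 ± 0.14 (SD, n = 3, adjusted p = 0.00187, limma), whereas Scnn1b and Scnn1g, the other subunits, had -0.08 and -0.09. Avpr2, the receptor through which vasopressin acts on these cells, had 0.15 ± 0.24 (adjusted p = 0.324), and Hsd11b2, which keeps cortisol and corticosterone from the mineralocorticoid receptor, 0.29 ± 0.26 (adjusted p = 0.104). Kcnj1, the potassium channel ROMK, had -0.23 ± 0.15 (adjusted p = 0.0691) at a multiple of 8, and Gata3, a transcription factor, -0.22 ± 0.11 (adjusted p = 0.117). The part of principal cell number in the Aqp2 ratio was not tested.

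Among 25 genes of vasopressin signalling and aquaporin traffic, 3 were higher, 4 lower and 18 did not pass in kidney, with a median of 0.08. The higher ones were Prkaca, a catalytic subunit of protein kinase A (0.37 ± 0.13, SD, n = 3, adjusted p = 0.0324, limma), its regulatory subunit gene Prkar1a (0.28) and the transcription factor gene Creb3 (0.54). Lower were Rab11a, of recycling endosomes (-0.49 ± 0.10, adjusted p = 0.00599), Stx4a, a syntaxin of the plasma membrane (-0.53 ± 0.21, adjusted p = 0.00930), Snap23, its SNARE partner (-0.34 ± 0.09), and the transcription factor gene Creb1 (-0.32). The probes of Rab11a and Stx4a have numbers that are multiples of 8, spots that 1 of the alternatives leaves out. No aquaporin probe has such a number. The kidney ratios given for listed genes at such spots were all negative, while some other listed genes at such spots were positive in kidney. The sign of ratios at such spots was not tested. Counts of the vasopressin and traffic list in kidney ranged from 0 to 4 in each direction under the alternatives. Of 9 genes of urea transport and osmolytes, 2 were higher, 1 lower and 6 did not pass (median 0.14), with Slc14a1, a urea transporter, at 0.38 ± 0.28 and Slc6a6, the taurine transporter, at 0.41 ± 0.20, while Slc14a2, the urea transporter of the inner medulla, had -0.14 ± 0.24 (adjusted p = 0.378) at a multiple of 8. The third gene, Hspa4l, a heat shock protein of osmotic stress, had -0.73 ± 0.35 at a multiple of 8. In brain 2 of the 25 vasopressin and traffic genes were higher and 1 lower. Avp, the vasopressin gene, was among the higher (0.59 ± 0.25, adjusted p = 0.0284, limma). Under the alternatives 0 to 3 were higher and 0 to 2 lower in brain. In liver 1 was higher and 4 were lower, with Avpr1a, another vasopressin receptor gene, at -0.96 ± 0.39 (adjusted p = 0.000299, limma).

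Markers of the other kidney segments moved both ways. Of 15 proximal tubule markers, 2 were higher, 1 lower and 12 did not pass, with a median of -0.06. Of 6 markers of the thin and thick limbs, 1 was higher and 1 lower, with a median of -0.03. Of 9 markers of intercalated cells, which pump acid and base and are the cells known for Aqp6, 3 were higher, 2 lower and 4 did not pass, with a median of 0.23. Rhbg, an ammonia transporter of these cells, had 0.85 ± 0.06 (SD, n = 3, adjusted p = 0.000628, limma), and Slc26a4, the bicarbonate exchanger pendrin, 0.36 ± 0.09. Atp6v0a4, a subunit of their proton pump, had -0.66 ± 0.20 (adjusted p = 0.00642) at a multiple of 8, and Slc4a1, the exchanger of the other intercalated type and of red cells, had -0.44 ± 0.13.

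Aqp1, the constitutive water channel, was higher in the SJL/J pool in liver and kidney. Its ratios were 0.50, 0.84 and 0.65 on the liver arrays, 0.37, 0.18 and 0.55 on the kidney arrays, and -0.06, 0.09 and -0.28 on the brain arrays. Liver and kidney values overlapped slightly and all lay above every brain value. The mean was 0.66 ± 0.17 in liver (SD, n = 3, 1.58-fold, adjusted p = 0.00131), 0.37 ± 0.18 in kidney (1.29-fold, adjusted p = 0.0272) and -0.08 ± 0.18 in brain (adjusted p = 0.645, limma). Without brain replicate 3 the brain ratio was 0.02 (adjusted p = 0.934). The ratio in liver exceeded that in brain by 0.74 (95% interval 0.41 to 1.08, adjusted p = 0.0111), a difference kept in 17 of 17 settings. Kidney exceeded brain by 0.45 (0.11 to 0.78, adjusted p = 0.104) and liver exceeded kidney by 0.30 (-0.04 to 0.63, adjusted p = 0.191), and neither difference passed. The kidney call was lost in 4 of 18 settings, among them without kidney replicate 1 (adjusted p = 0.111) and without kidney replicate 3 (ratio 0.28, adjusted p = 0.182).

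The liver cells known for Aqp1 gave no common ratio. Of 12 endothelial markers, 1 was higher in liver (Cd34, 0.66 ± 0.21, SD, n = 3, adjusted p = 0.00368, limma), 1 lower (Tek, an angiopoietin receptor, -0.45 ± 0.06, adjusted p = 0.00492), and 10 did not pass, with a median of -0.04 and Pecam1, the junction protein CD31, at 0.11. Of 6 bile duct markers 0 were higher and 1 lower (Cftr, the chloride channel, -0.43 ± 0.25), with a median of -0.08. Of 6 red cell markers, 3 were higher, 1 lower and 2 did not pass, with a median of 0.15. Hba-a1, alpha globin, had 0.83 ± 0.35 and Rhag, a glycoprotein of the red cell membrane, 0.40 ± 0.17, whereas Alas2, the enzyme that opens haem synthesis in red cell precursors, had -1.96 ± 0.35. The part of red cells in the Aqp1 ratio was not tested. In brain, Aqp1 marks the choroid plexus, and of 8 markers of that tissue 0 were higher, 0 lower and 8 did not pass, with a median of 0.09. With brain replicate 3 left out, 1 of the 8 was lower and the median was 0.04.

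Aqp4, the channel of astrocyte endfeet, did not pass in brain, its best known site. Its ratios were 0.12, 0.36 and -0.11 on the brain arrays, 0.24, 0.05 and 0.43 on the kidney arrays, and -0.28, -0.50 and -0.43 on the liver arrays. Brain and kidney values overlapped, and each liver value lay below all of them. The brain mean was 0.12 ± 0.23 (SD, n = 3, 95% interval -0.12 to 0.37, adjusted p = 0.467). Leaving out brain replicate 3 gave 0.24, which did not pass either. In kidney the mean was 0.24 ± 0.19 (adjusted p = 0.128), and in liver -0.40 ± 0.11 (1.32-fold lower in the SJL/J pool, adjusted p = 0.0212, limma), a call that was lost without liver replicate 1 (adjusted p = 0.0509), 2 (0.113) or 3 (0.0953). Liver lay below kidney by 0.64 (95% interval of liver minus kidney -0.98 to -0.30, adjusted p = 0.0167), in 14 of 17 settings. That difference did not pass without kidney replicate 1 (adjusted p = 0.0526), kidney replicate 3 (0.0657) or liver replicate 2 (0.0542). Liver minus brain was -0.53 (-0.87 to -0.18, adjusted p = 0.0507). The liver level of this gene is unknown here.

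Of 12 genes of the complex that holds Aqp4 in the endfoot membrane, 2 were higher in the SJL/J brain pool, 0 lower and 10 did not pass, with a median of 0.08. They were Utrn, utrophin (0.47 ± 0.09, SD, n = 3, adjusted p = 0.0113, limma), and Dag1, dystroglycan (0.37 ± 0.06, adjusted p = 0.0154). Dmd, dystrophin, had -0.07 and Dtna, dystrobrevin alpha, 0.14. Of 14 astrocyte markers, 0 were higher, 1 lower and 13 did not pass, with a median of -0.02. Gfap, the filament protein of astrocytes, had 0.30 ± 0.08 (adjusted p = 0.0594), and Aldh1l1, a folate enzyme, -0.49 ± 0.29 (adjusted p = 0.0306) at a multiple of 8. With brain replicate 3 left out, 2 endfoot genes were higher and 0 lower (median 0.15), and 1 astrocyte marker was higher and 1 lower.

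Aqp5, the channel of glands and lung, gave 0.95, 0.32 and 0.25 on the kidney arrays, 0.28, -0.01 and 0.21 on the brain arrays, and -0.26, -0.31 and -0.19 on the liver arrays. Kidney replicate 1 was the highest value by far, the other kidney values overlapped with those of brain, and liver lay below both. The kidney mean was 0.50 ± 0.39 (SD, n = 3, 1.42-fold, adjusted p = 0.0143) and passed, but without kidney replicate 1 it was 0.28 (adjusted p = 0.131, limma). In brain the mean was 0.16 ± 0.15 (adjusted p = 0.421), or 0.13 with brain replicate 3 left out, and in liver -0.25 ± 0.06 (adjusted p = 0.179). Liver lay below kidney by 0.76 (95% interval of liver minus kidney -1.15 to -0.36, adjusted p = 0.0161). This difference passed in 16 of 17 settings, the exception being the removal of the array's layout. Of 8 markers of gland and lung epithelium, 0 were higher or lower in kidney, with a median of -0.07.

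The aquaglyceroporins Aqp7 and Aqp9 did not follow Aqp3. Aqp7, the glycerol channel of fat cells and of the straight proximal tubule, had 0.35, 0.52 and 0.56 on the brain arrays, -0.12, 0.06 and 0.26 on the kidney arrays, and 0.04, 0.11 and 0.14 on the liver arrays. Each brain value lay above all others. The brain mean was 0.47 ± 0.11 (SD, n = 3, 1.39-fold, adjusted p = 0.00724), or 0.43 if brain replicate 3 was left out, against 0.07 ± 0.19 in kidney (adjusted p = 0.638) and 0.10 ± 0.05 in liver (adjusted p = 0.490, limma). No difference between tissues passed for Aqp7: kidney minus brain was -0.41 (95% interval -0.70 to -0.11, adjusted p = 0.0962) and liver minus brain -0.38 (-0.67 to -0.08, adjusted p = 0.0939). The brain call was lost without brain replicate 2 (adjusted p = 0.0505), on the brain arrays alone (0.0801) and with the layout removed (ratio 0.20, adjusted p = 0.201). Of 9 fat cell markers in brain, 1 was higher, 2 lower and 6 did not pass (median 0.01), with Adipoq, adiponectin, at -1.90 ± 0.26 at a multiple of 8, Cidec, of lipid droplets, at -0.49, Pparg, the master regulator of fat cells, at 0.63 and Fabp4, their fatty acid binding protein, at 0.03. The counts were also 1 higher and 2 lower with brain replicate 3 left out.

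Aqp9, the route of glycerol into liver, had the widest spread of any member on the brain arrays. Its ratios were 1.09, 0.29 and -0.70 on the brain arrays, -0.33, -0.59 and -0.12 on the kidney arrays, and 0.31, 0.23 and -0.34 on the liver arrays. Brain and liver values lay on both sides of 0, and brain replicate 3 was the lowest value of all. The means were 0.23 ± 0.89 in brain (SD, n = 3, adjusted p = 0.573), -0.35 ± 0.24 in kidney (adjusted p = 0.338) and 0.07 ± 0.36 in liver (95% interval -0.49 to 0.62, adjusted p = 0.879, limma). Without the array labelled brain replicate 3 the brain ratio was 0.69 and passed (adjusted p = 0.0363), and kidney minus brain, -0.57 over all arrays (adjusted p = 0.347), was -1.04 and passed (adjusted p = 0.0257). In kidney the ratio passed as lower in 1 of 18 settings, the kidney arrays alone (adjusted p = 0.0476, limma). The main fit shares its spread between tissues, so the wide brain values also widen the kidney and liver intervals (standard error 0.25 in each). The liver interval reaches well to both sides of 0, so a strain difference of moderate size in liver was not detectable in this fit.

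Genes of glycerol handling that passed in liver were all on the lower side, while Aqp9 was not called. Of 17 such genes, 0 were higher, 9 lower and 8 did not pass in liver, with a median of -0.41 beside -0.02 over all genes, and 6 to 10 were lower under the alternatives. G6pc, the last enzyme of glucose release, had -2.73 ± 0.13 (SD, n = 3, adjusted p = 3.30e-07), Plin2, a coat protein of lipid droplets, -1.75 ± 0.42 (adjusted p = 1.42e-05), Gpd1, which links glycerol phosphate to glycolysis, -1.16 ± 0.38 (adjusted p = 0.000130), and Lpin2, a phosphatidate phosphatase, -0.63 ± 0.10 (adjusted p = 0.000669, limma). Pck1, the phosphoenolpyruvate carboxykinase of glucose synthesis, had -0.20 ± 0.37 (adjusted p = 0.589, limma). In kidney the same list had 2 higher, 2 lower and a median of 0.03, and in brain 1 higher, 2 lower and a median of -0.04, or 2 higher and 3 lower with brain replicate 3 left out.

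Aqp8, a channel of hepatocytes and pancreas, had ratios of 0.10, -0.28 and 0.03 on the liver arrays, 0.38, -0.47 and 0.29 on the kidney arrays, and 0.36, 0.27 and -0.09 on the brain arrays. The tissues overlapped and each held both signs. The liver mean was -0.05 ± 0.20 (SD, n = 3, 95% interval -0.40 to 0.29, adjusted p = 0.837), the kidney mean 0.07 ± 0.47 (adjusted p = 0.793) and the brain mean 0.18 ± 0.24 (adjusted p = 0.454, limma). Without brain replicate 3 the latter was 0.32 (adjusted p = 0.242). Of 20 hepatocyte markers in the same liver comparison, 11 were higher, 4 lower and 5 did not pass, with a median of 0.56. The smallest adjusted p belonged to Tdo2, which degrades tryptophan, at -1.69 ± 0.33, followed by Mup3, a major urinary protein, at 1.42 ± 0.26, Alb, serum albumin, at 1.06 ± 0.30 and Trf, transferrin, at 0.78 ± 0.16. Of 16 markers of pancreatic acinar cells, 4 were higher, 1 lower and 11 did not pass in liver, with a median of 0.20. Gp2, a membrane protein of zymogen granules, had 3.79 ± 0.25, Cela3b, an elastase, 0.57 ± 0.07 (adjusted p = 0.000609), and Prss2, a trypsinogen, -0.12.

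Aqp11, the channel of intracellular membranes, had 0.14, 0.25 and 0.07 on the kidney arrays, -0.01, -0.49 and -0.30 on the brain arrays, and -0.36, -0.17 and -0.29 on the liver arrays. Kidney values were all above 0, and brain and liver values all below. The means were 0.15 ± 0.09 in kidney (SD, n = 3, adjusted p = 0.294), -0.27 ± 0.24 in brain (adjusted p = 0.0933) and -0.27 ± 0.10 in liver (adjusted p = 0.0728, limma), none of which passed. The brain ratio was -0.25 with brain replicate 3 left out (adjusted p = 0.169). Kidney minus brain was 0.42 (95% interval 0.10 to 0.74, adjusted p = 0.106), and liver minus kidney was -0.42 (-0.74 to -0.11, adjusted p = 0.0595). The latter passed in 5 of 17 settings: with the layout removed (-0.50, adjusted p = 0.0408), with array weights (-0.44, adjusted p = 0.0241), and without brain replicate 1 (adjusted p = 0.0371), 2 (0.0495) or 3 (0.0480). The liver ratio passed in 3 of 18 settings and the brain ratio in 2. Mip, the lens channel of the same family, had -0.06, -0.22 and -0.03 in brain, kidney and liver and passed in none.

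The tissue dependence of the ratio was tested in the same model by a moderated F-test, and 5 of 9 aquaporins passed (Aqp1, Aqp2, Aqp3, Aqp4 and Aqp5), against 22.1% of all genes. The adjusted p was 0.0166 for Aqp1, 0.0167 for Aqp2, 0.0259 for Aqp4, 0.0295 for Aqp3 and 0.0320 for Aqp5 (limma). By single contrasts 4 aquaporins were lower in ratio in liver than in kidney (Aqp2, Aqp3, Aqp4 and Aqp5) and 0 higher, against 11.0% and 8.52% of all genes (19.5% in either direction). Between liver and brain 1 was higher (Aqp1) and 1 lower (Aqp3), against 5.61% and 6.00% (11.6% in either direction), and between kidney and brain 1 was higher (Aqp2) and 0 lower, against 2.97% and 2.50% (5.47% in either direction). These contrasts share arrays and are not independent of each other. The count of aquaporins with a tissue-dependent ratio fell to 2 without kidney replicate 1 or without any 1 of the liver arrays, and was 3 without kidney replicate 3.

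**Figure D3:**
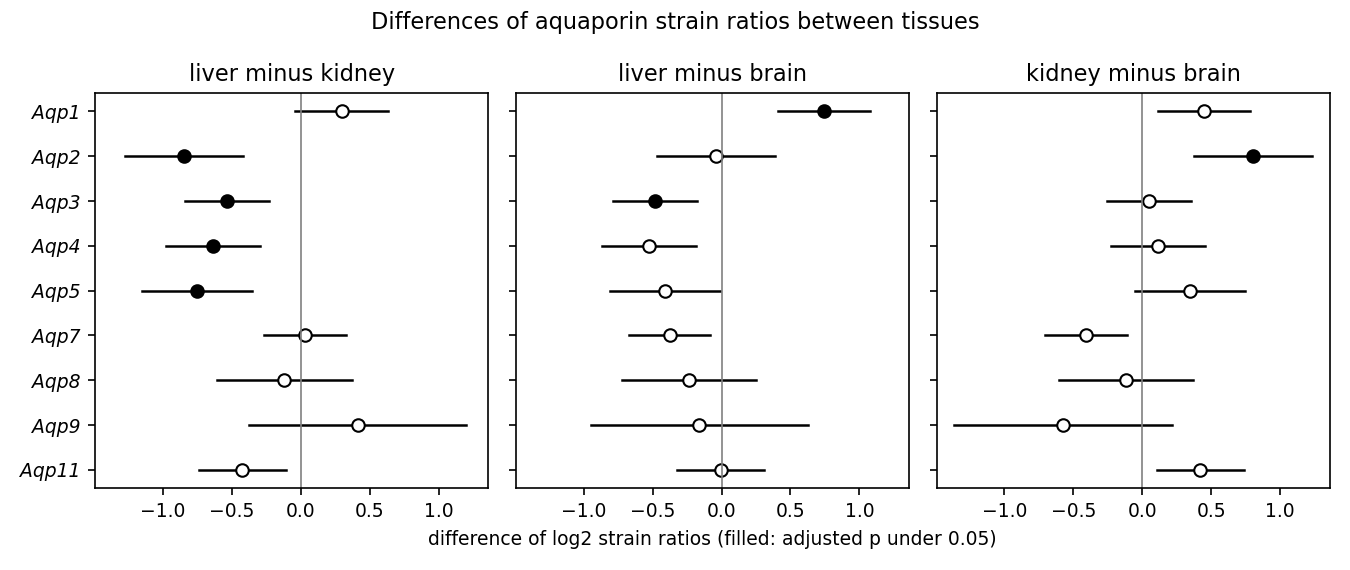
Differences of the log2 strain ratio between tissues for each aquaporin, with 95% intervals from the limma fit; filled points passed at an adjusted p under 0.05. In the panel of liver minus kidney Aqp2, Aqp3, Aqp4 and Aqp5 lie at -0.53 to -0.85, while Aqp1, Aqp7 and Aqp9 lie above 0 without passing.

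Where the probes lie on the array bears on several of these values. Of the 9 aquaporin probes, 5 (Aqp1, Aqp3, Aqp4, Aqp7 and Aqp8) have numbers spaced by multiples of 3840 and 2 (Aqp2 and Aqp5) by 3840, so that they share places in the layout. The other spots in the line of 24 consecutive numbers that holds Aqp3 had median ratios of 0.19 on the brain, 0.25 on the kidney and 0.22 on the liver arrays, and those around Aqp7 had 0.27 in brain. Around Aqp1 and Aqp5 the line medians in kidney were 0.20 and 0.20. Around Aqp2 the liver median was -0.33, and around Aqp8 it was -0.31.

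With the medians of lines and of places within a line removed on each array, Aqp3 passed in each tissue, at 0.74 for brain, 0.73 for kidney and 0.32 for liver (adjusted p = 0.000687, 0.000641 and 0.0360, limma). Aqp2 had 0.98 in kidney (adjusted p = 0.000928) and also passed in liver at 0.58 (adjusted p = 0.0121), and its kidney ratio no longer passed as higher than in liver (liver minus kidney -0.40, adjusted p = 0.183) or brain (0.69, adjusted p = 0.0716). Aqp1 kept its liver ratio of 0.67 (adjusted p = 0.000663) and lost the kidney call (0.12, adjusted p = 0.406), and liver then exceeded kidney by 0.55 (adjusted p = 0.0205). Aqp4 kept its lower ratio in liver (-0.38, adjusted p = 0.0306), Aqp5 lost its kidney call (0.23, adjusted p = 0.294), and Aqp11 passed as lower at -0.34 in brain (adjusted p = 0.0471) and -0.36 in liver (adjusted p = 0.0283).

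**Figure D4:**
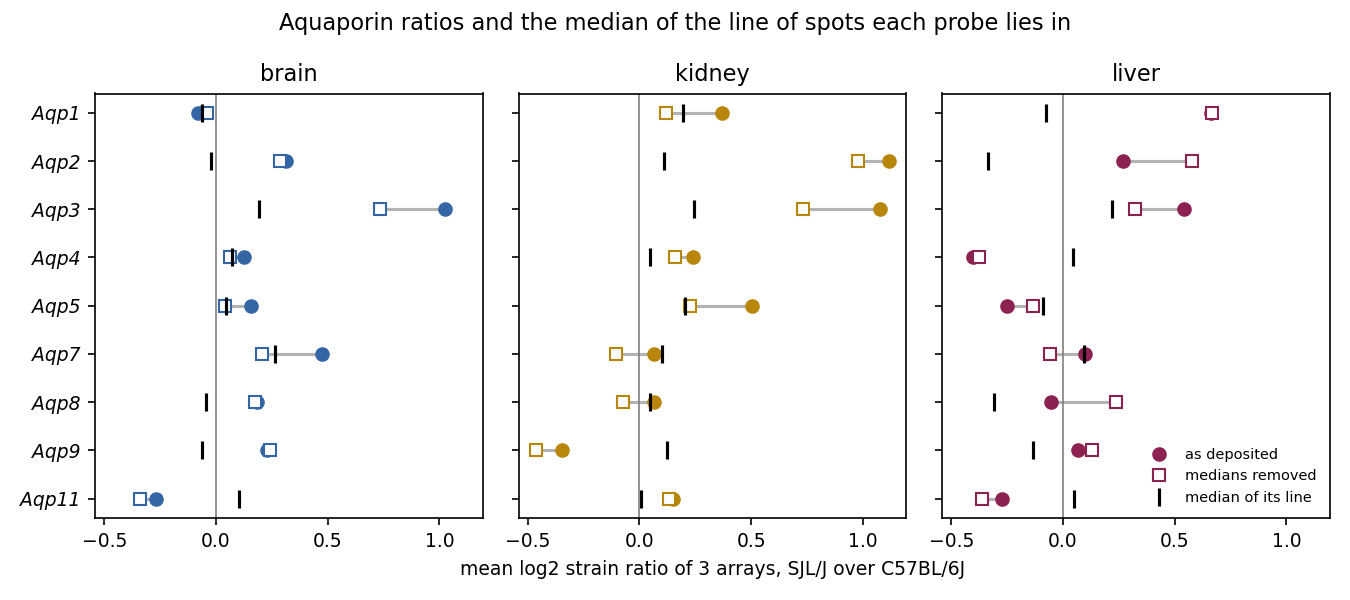
Mean log2 strain ratio of each aquaporin as deposited (circles), after medians of lines and places were removed (squares), and the median of the other spots in its line (ticks). Aqp1 in liver and Aqp4 in liver hardly moved, Aqp2 in liver moved from 0.27 to 0.58, and Aqp5 in kidney from 0.50 to 0.23.

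Of the aquaporins, Aqp2 and Aqp5 lie side by side on mouse chromosome 15, and Aqp3 and Aqp7 on chromosome 4, in the order of measured protein-coding genes. Both members of the first pair were called higher in kidney, and both of the second in brain. The members of each pair also share a place in the array's layout. With medians of lines and places removed, Aqp5 in kidney (0.23, adjusted p = 0.294) and Aqp7 in brain (0.20, adjusted p = 0.201, limma) no longer passed. The shared place had a median of 0.06 in brain for Aqp3 and Aqp7 and of 0.09 in kidney for Aqp2 and Aqp5. The lines, which are not shared, had medians of 0.27 around Aqp7 and 0.19 around Aqp3 in brain. In kidney they had 0.20 around Aqp5 and 0.11 around Aqp2. Aqp1, Aqp4 and Aqp8 share the place of Aqp3 and Aqp7 without being their neighbours, and none was called in brain. The parts of nearness on the chromosome and of the array's layout in these pairs were not tested. Among the other genes around the Aqp3 and Aqp7 pair, Nfx1 and Chmp5 on the Aqp7 side had 0.10 and -0.14 in brain and -0.24 and -0.0015 in kidney, and Ube2r2 and Ubap2 on the Aqp3 side 0.13 and 0.13 in brain and 0.18 and 0.19 in kidney, none of which passed. Dcaf12, the next measured gene, passed at 0.29 in brain (adjusted p = 0.0464) and at 0.30 in kidney (adjusted p = 0.0288, limma). Bag1, a chaperone partner farther out on the Aqp7 side, was lower in liver (-0.72, adjusted p = 0.00163). Around the Aqp2 and Aqp5 pair, Faim2 had -0.02 and Racgap1 -0.09 in kidney, while Asic1, a proton-gated sodium channel, was higher in kidney (0.64, adjusted p = 0.00608) and liver (0.73, adjusted p = 0.00317). Next to Aqp1 lie Inmt, a methyltransferase gene, and Ghrhr, the gene of the growth hormone releasing hormone receptor. Inmt had -1.75 in liver (adjusted p = 0.000142) and -0.31 in kidney (adjusted p = 0.282). Ghrhr had -0.64 in liver (adjusted p = 0.00114), opposite in sign to Aqp1, and 0.31 in kidney (adjusted p = 0.0449, limma), the same sign as Aqp1.

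For each aquaporin called in at least 1 tissue, the 3 genes with the most similar ratios were taken as those with the smallest root mean square difference over the 9 arrays, as a description without a test. Nearest to Aqp2 were Vsig2 (0.22), Cd74, the invariant chain of MHC class II (0.23), and Jrk (0.23), with kidney ratios of 1.19, 1.01 and 0.95, beside a median difference of 0.77 over all genes. Nearest to Aqp3 were Gpx4, a selenium peroxidase (0.18), Hba-x, an embryonic globin (0.19, at a multiple of 8), and Psmc4, of the proteasome (0.22). Aqp1 was followed most closely by Dmpk and Rec8 (0.14 each) and 4933414I15Rik (0.15), Aqp4 by Magea3, Mgll and Prox1 (0.12 each), Aqp5 by Wfdc15b (0.08), Lmbrd1 (0.11) and Emp3 (0.12), and Aqp7 by Stat2 (0.09), Ddx18 (0.10) and Man2a2 (0.11). All arrays share the dye orientation, and arrays of a tissue share their pools.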

How the data were processed

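Spotted 2-colour arrays of brain, kidney and liver were used, with 3 arrays per tissue and 20 ug of pooled RNA per labelling. Per the submitters' processing notes, the authors used R 2.0.0 and limma. The deposited values are 1 log2 ratio per spot, with the base taken from limma's convention because the labels do not state it. All 9 columns hold one and the same set of values in a different order (median 0.01, from -3.91 to 5.09), as quantile normalization between arrays gives. Background correction is not given in the sources used here, and dim spots could not be left out. The channel 1 tissue label of 6 arrays reads brain against their titles, which were followed.

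Probes with a single symbol in the platform annotation (16874 of 23040) were averaged by gene, with 15096 genes and 0 symbols changed through RefSeq. A model with 1 coefficient per tissue was fitted by lmFit and eBayes of limma 3.58.1 under R 4.3.3 (6 residual and 5.17 prior degrees of freedom), and tissue means, contrasts and the F-test were adjusted by Benjamini-Hochberg over all genes with a threshold of 0.05. The script was tested on simulated data. Named were all members, up to 4 genes per list in the tissue described with the smallest adjusted p, and the 3 genes most alike for each called member. Scnn1b, Scnn1g, Avpr2, Prkar1a, Creb3, Creb1, Slc14a2, Pecam1, Dmd, Dtna, Fabp4, Pck1, Prss2 and the neighbouring genes fall outside this rule and were chosen after their values were seen. Members and lists were chosen with earlier results of these data known.

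Alternatives were a fit by probe, medians of probes, no probes at multiples of 8, removal of medians of lines and places, another centring, the arrays of a tissue alone, array weights, a robust prior, the replicate number as a block, and each array left out. Each aquaporin had 1 probe, none at a multiple of 8. The fit by probe, the medians of probes and the omission of such spots therefore left its ratio unchanged. So did the block, the robust prior, the arrays of a tissue alone and the omission of an array of another tissue. These settings could change only its standard error and adjusted p, so passing in them says little about the ratio itself. The precision rests on the number of arrays alone, since the depth of a spot is unknown.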

Additional observations from a re-analysis of the deposited data

Results flagged for a closer look

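Strain ratios that differed between tissues by a test of the difference itself are listed here. For Aqp2, liver minus kidney was -0.85 (adjusted p = 0.0135) and kidney minus brain 0.80 (adjusted p = 0.0399), with kidney the highest on all 3 of its arrays. For Aqp3, liver minus kidney was -0.53 (adjusted p = 0.0221) and liver minus brain -0.48 (adjusted p = 0.0457), with liver the lowest on all 3. For Aqp1, liver minus brain was 0.74 (adjusted p = 0.0111). For Aqp4 and Aqp5, liver minus kidney was -0.64 (adjusted p = 0.0167) and -0.76 (adjusted p = 0.0161, limma). Of these differences, only that of Aqp1 passed in 17 of 17 alternative settings. Liver minus kidney passed in 15 for Aqp2, 13 for Aqp3, 14 for Aqp4 and 16 for Aqp5. Kidney minus brain of Aqp2 passed in 7, and liver minus brain of Aqp3 in 3. Single values that stand apart within a group were not tested, since each group held 3 arrays.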

How the results depend on the processing

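The counts of called aquaporins were 2 for brain, 4 for kidney and 3 for liver, and 5 ratios depended on tissue. With medians of lines and places removed, the counts were 2 in kidney, 5 in liver and 2 for tissue dependence, with 1 of these 2 shared. On the brain arrays alone 1 passed in brain, where 3.07% of all genes passed against 17.2%. Leaving out 1 array gave 1 to 3 for brain, 2 to 4 for kidney, 2 to 4 for liver and 2 to 6 for tissue dependence. Over all genes, leaving out an array brought the share called to as little as 6.98% in brain, 14.4% in kidney (from 27.4%), 14.4% in liver (from 24.5%) and 12.9% for tissue dependence (from 22.1%), where array weights gave 36.6%. Samples with the same replicate number did not deviate together (correlations of -0.08 to 0.05). The titles do not say what the number stands for, and these correlations cannot settle it. With the replicate number as a block the counts were 2, 4, 3 and 5, while Aqp2 kidney minus brain (adjusted p = 0.0589) and Aqp3 liver minus brain (adjusted p = 0.0645, limma) no longer passed. Centring on named probes ended the kidney call of Aqp1 (0.32, adjusted p = 0.0501). Of 486 values of single genes under an alternative, 466 kept their side of the threshold, 12 lost the call and 8 gained one, and no called value changed sign. Of the 466, 13 not called in either setting changed sign. Many of the 486 come from settings that leave the ratio of an aquaporin unchanged. Alternatives of background correction or dim spots could not be run on ratios. The causes of these changes were not tested.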
